A study of Homo sapiens with 12 samples.

Results

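The 10 circadian clock genes described here are PER1, PER2, PER3, CRY1, CRY2, NR1D1, NR1D2, DBP, TEF and BHLHE40, out of 20031 genes on the arrays. A gene's level was read from whichever of its probe sets had the highest mean on the 12 arrays, with an exception for NR1D1 given below. Affymetrix arrays measured messenger RNA of HK-2 cells, a line immortalised from human proximal tubule, so every group comes from 1 cell line. The cells were grown in medium that contained hydrocortisone, insulin and EGF, were plated a day before dosing and were nearly confluent when dosed. There were 4 groups of 3 biological replicates: CsA for 48 h, vehicle control for 48 h, CsA for 12 h and vehicle control for 12 h. CsA is taken to be cyclosporine A, which suppresses immunity by binding cyclophilins and blocking calcineurin and can injure the kidney. The labels give no dose. Nothing in the labels gives the hour of day of dosing or harvest or a step that sets the cells to a common phase, and 2 times cannot describe a rhythm.

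The cell-autonomous clock of mammals is a loop of transcription factors. CLOCK and BMAL1 bind E-boxes (CACGTG and close variants) and switch on the PER, CRY and NR1D genes as well as DBP, TEF and BHLHE40. PER and CRY proteins then inhibit CLOCK and BMAL1, the nuclear receptors NR1D1 and NR1D2 (REV-ERB alpha and beta) repress BMAL1, and DBP and TEF act on D-boxes in other genes. BHLHE40 competes at E-boxes as a repressor. In kidney tubules this loop is known to time the expression of transport genes, and in cultured cells it is known to be reset by glucocorticoids, serum and fresh medium.

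Promoter windows show where such motifs lie in the 3 members whose level changed between the times in control cells. Each window runs from 250 bases before to 50 bases after the annotated gene start, in RefSeq sequence of GRCh38.p14, written 5′ to 3′ along the gene's strand. Capitals mark motif matches on either strand. The PER1 window is chr17:8152355-8152654 on the minus strand and has an E-box at -173, counted from the gene start. The NR1D2 window shown, of 2 in the table, is chr3:23945871-23946170 on the plus strand. It has E-boxes at -155 and -105, a D-box (TTATGTAA, read on the other strand) at -194 and a REV-ERB motif (TGGGTCA, on the other strand) at -133. The CRY1 window is chr12:107093500-107093799 on the minus strand and has the E-box variant CACGTT, on the other strand, at -89.
PER1: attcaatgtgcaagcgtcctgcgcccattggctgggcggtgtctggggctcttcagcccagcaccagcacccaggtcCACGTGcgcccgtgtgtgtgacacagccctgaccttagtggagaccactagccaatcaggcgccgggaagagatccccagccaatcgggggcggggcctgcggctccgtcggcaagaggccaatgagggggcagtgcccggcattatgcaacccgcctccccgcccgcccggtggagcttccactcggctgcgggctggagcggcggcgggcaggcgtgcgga
NR1D2: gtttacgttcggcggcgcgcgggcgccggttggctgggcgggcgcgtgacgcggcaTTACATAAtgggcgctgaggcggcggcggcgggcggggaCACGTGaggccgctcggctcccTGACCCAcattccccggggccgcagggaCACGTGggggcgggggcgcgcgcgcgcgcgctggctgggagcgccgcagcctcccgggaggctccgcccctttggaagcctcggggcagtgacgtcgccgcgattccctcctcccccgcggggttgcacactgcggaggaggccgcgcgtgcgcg
CRY1: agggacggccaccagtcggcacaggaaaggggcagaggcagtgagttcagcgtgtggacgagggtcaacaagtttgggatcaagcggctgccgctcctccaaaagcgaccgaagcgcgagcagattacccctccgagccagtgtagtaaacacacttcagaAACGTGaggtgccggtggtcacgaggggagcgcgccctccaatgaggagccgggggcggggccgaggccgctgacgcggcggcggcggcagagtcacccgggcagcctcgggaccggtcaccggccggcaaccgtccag
All 10 members matched an entry, with 14 windows between them. CACGTG lay in 5 of the 14 windows, those of 4 members (PER1, NR1D2, TEF and BHLHE40), and in 7.26% of all 35116 windows. It reads the same on both strands. CACGTT or its reverse complement lay in 4 of the 14 windows (of PER2, CRY1, CRY2 and NR1D1) and in 5.34% of all windows. The D-box TTATGTAA was found for NR1D2 and PER3 (0.886% of all windows) and TTACGTAA for PER2 (0.125%). The cAMP response element TGACGTCA was in none of the members' windows and in 1.85% of all. The REV-ERB motif TAGGTCA was found for CRY2 (1.85%) and TGGGTCA for NR1D2 (3.92%). Each motif was searched on both strands. The window of DBP, the NR1D2 window not shown, a PER3 window and a CRY2 window had no match to any of these motifs. A match is a run of letters and not a measured binding site.

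All values are log2 levels made with GCRMA, which corrects background by probe sequence, and array medians lay between 2.85 and 2.96. Testing was limited to the 10645 genes above 4 on all 3 arrays of at least 1 group. Arrays within a group correlated at 0.992 to 0.994 across the tested genes in both 12 h groups, at 0.966 to 0.986 in control 48 h and at 0.930 to 0.982 in CsA 48 h. CsA 48 h replicate 3 stood apart, with correlations of 0.930 and 0.959 to the other 2 arrays of its group, so results that rest on it are also given without it. Of 10 proximal tubule markers, such as AQP1, LRP2 and CUBN, 0 were above 4 on every array and 9 were above it on none, whereas 6 of 6 general epithelial markers (keratins, CDH1 and EPCAM) were above 4 on every array. Of the markers of other cells, CD68 among 5 for leukocytes and PECAM1 among 4 for endothelium were above 4 on every array. Among 5 for fibroblasts and pericytes DCN, LUM and COL1A1 were, while the defining markers PTPRC, CDH5, PDGFRA and PDGFRB were above 4 on no array. Between 48 h and 12 h EPCAM was called higher under CsA (0.50) and in control (0.54) and KRT8 lower in control (-0.60), and their part in the results below was not tested. The mean over the 6 epithelial markers lay between 10.57 and 10.91 in CsA 48 h and between 10.42 and 10.80 in control 48 h, against 10.53 to 10.66 in CsA 12 h and 10.45 to 10.57 in control 12 h. Whether a lower value reflects less RNA per cell or fewer cells of a kind cannot be told apart in such bulk RNA.

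The 7 members that passed the filter were each above 4 on all 12 arrays: PER1 (probe set 202861_at), PER2 (205251_at), PER3 (221045_s_at), CRY1 (209674_at), NR1D2 (209750_at), TEF (225840_at) and BHLHE40 (201170_s_at). The PER1 probe set is annotated to both PER1 and the microRNA gene MIR6883, and its accession is PER1's in RefSeq. CRY2, the second cryptochrome, did not pass (212695_at): it read between 3.54 and 3.62 on every array. NR1D1 did not pass either, since its probe set (204760_s_at), shared with the overlapping gene THRA, read between 2.12 and 2.73. Another shared probe set (31637_s_at), whose accession RefSeq does not list for NR1D1, had a higher mean of 2.72 and also stayed below 4, with a top value of 3.52 and differences of 0.49 under CsA and 0.75 in control between 48 h and 12 h. DBP (209782_s_at) was above 4 on 3 arrays in all, at most 2 of them in 1 group, and is described below without a test. Its other probe set (209783_at) stayed below 4, between 3.37 and 3.66. That probe set differed by -0.08 between 48 h and 12 h in control and by -0.015 between CsA and control at 48 h. The DBP values below thus rest on 209782_s_at alone.

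**Figure D1:**
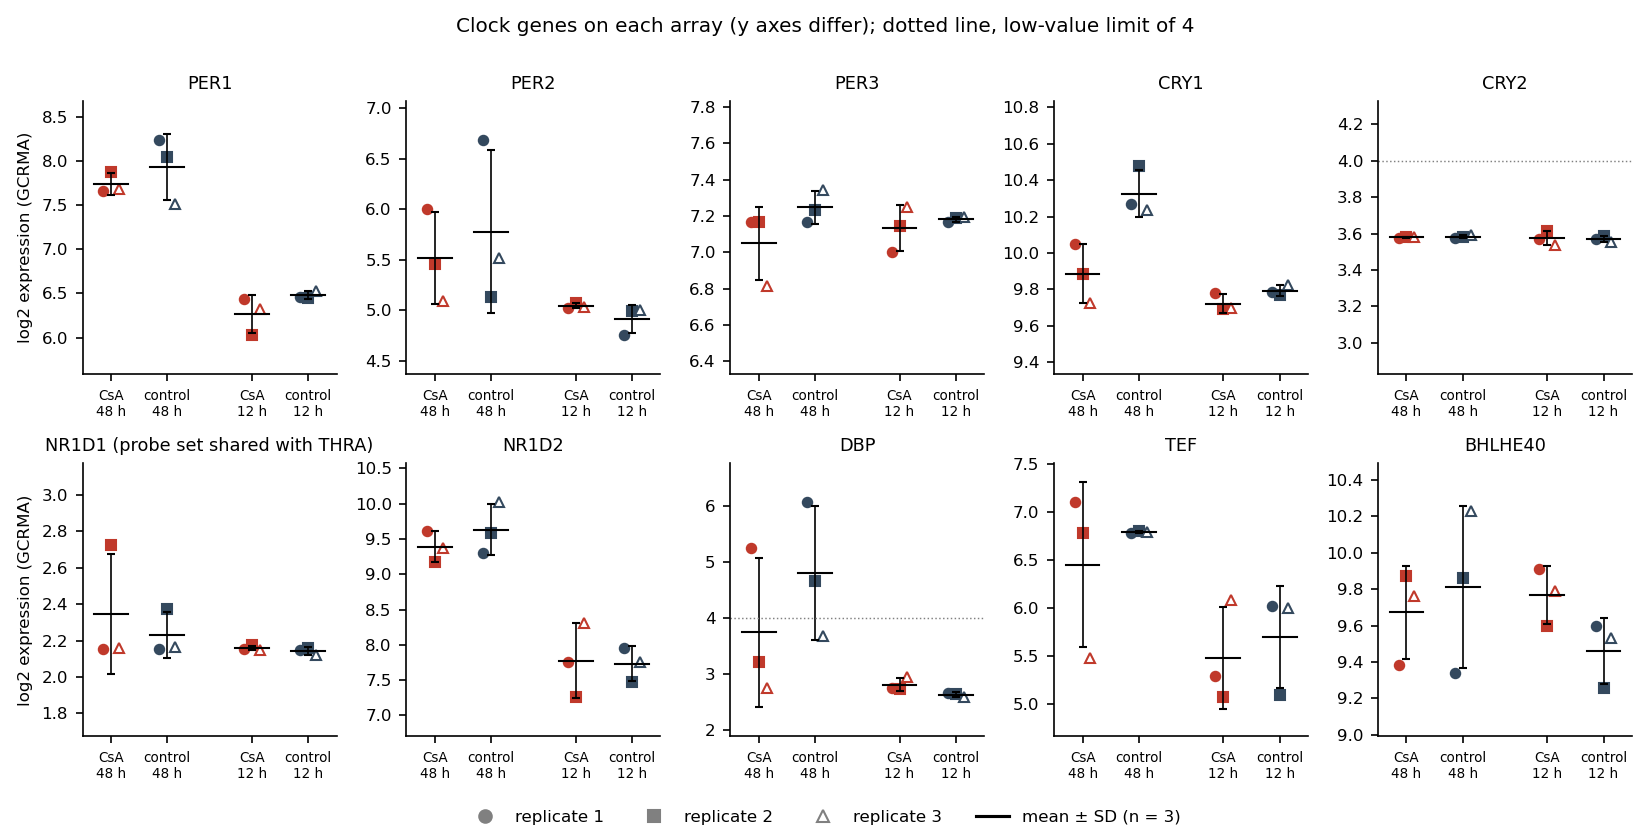
Log2 level (GCRMA) of the 10 clock genes on each of the 12 arrays, with CsA and control at 48 h on the left of each x axis and CsA and control at 12 h on the right. Symbols are replicates 1 to 3, horizontal lines are means and bars are SD (n = 3), and y axes differ between genes. PER1 and NR1D2 lie higher on every 48 h array than on every 12 h array, while CRY2 and NR1D1 stay below 4.

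The comparison of 48 h with 12 h asked how the clock genes differed between the times within CsA and within control cells. PER1 and NR1D2 were higher at 48 h in both, by 2.78-fold and 3.05-fold under CsA and by 2.74-fold and 3.73-fold in control. CRY1 was higher in control, by 1.45-fold. PER2, PER3, TEF and BHLHE40 did not pass the test in either. Limma (Benjamini-Hochberg over 10645 genes, threshold 0.05) called 2 of the 7 tested members under CsA, both higher, beside 6.79% of all tested genes called higher and 7.6% called lower (14.4% in either direction). In control it called 3 of 7, all higher, beside 12.5% called higher and 13.8% called lower (26.3% in either direction). The median difference of the 7 members was 0.47 under CsA and 0.86 in control, beside 0.010 and 0.007 over all tested genes. Time of exposure, age and density of the culture, age of the medium, hour of day and any batch that followed time cannot be told apart here.

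PER1 and NR1D2 passed the test under CsA and in control. PER1, whose protein inhibits CLOCK and BMAL1, was at 7.66, 7.88 and 7.68 in CsA 48 h (replicates 1, 2 and 3, the order used throughout) and at 8.24, 8.05 and 7.51 in control 48 h. At 12 h it was at 6.44, 6.03 and 6.32 under CsA and at 6.45, 6.45 and 6.53 in control. Every 48 h array was thus above every 12 h array. The difference was 1.48 under CsA (SE 0.18, adjusted p = 0.0036 by limma) and 1.45 in control (SE 0.18, adjusted p = 0.0012). Among tested genes ranked by absolute moderated statistic PER1 stood 19th under CsA and 68th in control. A second PER1 probe set past the filter (36829_at) differed by 1.39 under CsA and by 0.96 in control.

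NR1D2 codes for REV-ERB beta, a repressor of BMAL1. It read 9.62, 9.18 and 9.37 in CsA 48 h and 9.30, 9.58 and 10.02 in control 48 h, against 7.76, 7.26 and 8.31 in CsA 12 h and 7.96, 7.47 and 7.76 in control 12 h. Again no array of one time overlapped those of the other. The difference was 1.61 under CsA (SE 0.27, adjusted p = 0.0063 by limma) and 1.90 in control (SE 0.27, adjusted p = 0.0018). Its other probe set past the filter (225768_at) differed by 1.59 under CsA and by 1.96 in control. In a fit on the arrays of CsA 48 h and CsA 12 h alone the call under CsA was lost (adjusted p = 0.061). That fit called 41 genes in place of 1532. Both PER1 and NR1D2 kept their calls in the 6 fits per comparison that left out 1 array, with adjusted p up to 0.027.

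CRY1, the cryptochrome with a measurable signal, was at 10.05, 9.88 and 9.73 in CsA 48 h and at 10.27, 10.48 and 10.24 in control 48 h. At 12 h it was at 9.78, 9.69 and 9.70 under CsA and at 9.79, 9.77 and 9.82 in control. The control 48 h arrays were above the other 9 arrays, and the CsA 48 h arrays overlapped those of CsA 12 h. The difference between the times was 0.16 under CsA (SE 0.11, 95% interval -0.07 to 0.40, adjusted p = 0.30 by limma) and 0.53 in control (SE 0.11, interval 0.30 to 0.77, adjusted p = 0.0074). The control call held in each of 6 fits that left out 1 array. Under CsA the difference was 0.24 without CsA 48 h replicate 3. It passed in none of the 6 fits with 1 array fewer (lowest adjusted p 0.091 by limma).

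The other PER genes were less clear. PER2 was at 6.00, 5.46 and 5.09 in CsA 48 h and at 6.68, 5.13 and 5.52 in control 48 h, against 5.02, 5.07 and 5.03 in CsA 12 h and 4.75, 4.99 and 5.00 in control 12 h. All its 48 h arrays were above all its 12 h arrays, and replicate 1 was the highest in both 48 h groups. The difference was 0.47 under CsA (SE 0.34, adjusted p = 0.36 by limma) and 0.86 in control (SE 0.34, adjusted p = 0.086). With 1 array left out the control difference ran from 0.41, without control 48 h replicate 1 (adjusted p = 0.25), to 1.19, without control 48 h replicate 2 (adjusted p = 0.045), and only this last of the 6 fits passed. PER3 lay between 6.82 and 7.34 on all arrays, and its differences were -0.08 under CsA (SE 0.12, 95% interval -0.34 to 0.17) and 0.07 in control (SE 0.12, interval -0.19 to 0.32).

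DBP and TEF code for related activators of the PAR bZIP family. TEF was at 7.10, 6.78 and 5.48 in CsA 48 h and at 6.78, 6.80 and 6.79 in control 48 h, against 5.29, 5.07 and 6.08 in CsA 12 h and 6.02, 5.09 and 6.00 in control 12 h. The control arrays did not overlap between times, while CsA 48 h replicate 3 fell within the CsA 12 h range. The difference was 0.97 under CsA (SE 0.42, adjusted p = 0.13 by limma) and 1.09 in control (SE 0.42, adjusted p = 0.076). Without CsA 48 h replicate 3 the CsA difference was 1.46 and passed (adjusted p = 0.0085), and 3 of 7 members were then called, beside 37.0% of all tested genes. DBP was at 5.25, 3.21 and 2.75 in CsA 48 h and at 6.07, 4.66 and 3.68 in control 48 h, against 2.75, 2.74 and 2.94 in CsA 12 h and 2.66, 2.64 and 2.58 in control 12 h. Its 3 arrays above 4 were thus all at 48 h, and in control every 48 h array was above every 12 h array. With no filter on low values the DBP difference was 0.93 under CsA (SE 0.70, adjusted p = 0.60 by limma) and 2.18 in control (SE 0.70, adjusted p = 0.089). With a filter of above 4 on any 3 of the 12 arrays, chosen after seeing the data, the control difference passed (adjusted p = 0.034) and the CsA difference did not (adjusted p = 0.34).

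BHLHE40 (DEC1), the E-box repressor, was at 9.38, 9.87 and 9.76 in CsA 48 h and at 9.34, 9.86 and 10.23 in control 48 h. At 12 h it was at 9.91, 9.60 and 9.79 under CsA and at 9.60, 9.25 and 9.53 in control. The times overlapped in both, with differences of -0.09 under CsA (SE 0.22, 95% interval -0.57 to 0.39) and 0.35 in control (SE 0.22, interval -0.13 to 0.83). Over the 7 tested members the arrays of the 2 times did not overlap for 3 genes under CsA, all higher (PER1, PER2 and NR1D2, beside 16.1% of all tested genes higher and 19% lower). In control they did not overlap for 5, all higher (these 3, CRY1 and TEF, beside 24.9% higher and 25.2% lower).

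**Figure D2:**
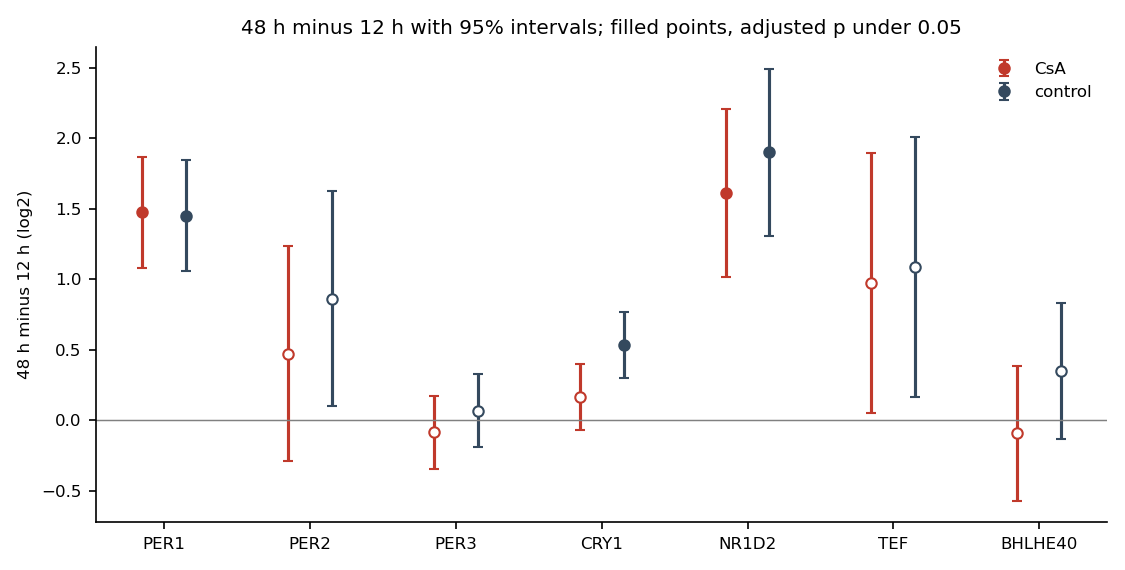
Difference of 48 h minus 12 h (log2) for the 7 clock genes that passed the filter, under CsA and in control, with 95% intervals from limma (n = 3 arrays per group). Filled points have an adjusted p under 0.05: PER1 and NR1D2 in both, CRY1 in control.

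Whether CsA changed these genes after the longer exposure was asked by setting the 48 h groups against each other. No member passed. Limma called 0 of the 7 tested members and 0 of 10645 genes (0%), with 268 genes at an unadjusted p under 0.05 (2.52%). With the numbered pairs as a block it also called 0 genes, with 1323 at an unadjusted p under 0.05 (12.4%). All 7 tested members had values below 0, with a median of -0.24 beside -0.018 over all tested genes. By numbered pair, 4, 5 and 6 of the 7 were below their control in pairs 1, 2 and 3. Of all tested genes, 50.2%, 49.4% and 55.8% were below control in these pairs. The medians of the 7 were -0.0002, -0.07 and -0.51 beside -0.0002, 0.0018 and -0.03 over all genes. Without CsA 48 h replicate 3, 6 of 7 were below 0 and the median was -0.16.

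CRY1 had the smallest unadjusted p of the members at 48 h. It averaged 9.89 ± 0.16 in CsA 48 h and 10.33 ± 0.13 in control 48 h (SD, n = 3 each). All CsA arrays were below all control arrays, as for 2.46% of tested genes (2.08% were separated the other way), and the pairs differed by -0.22, -0.59 and -0.51. The difference was -0.44 (SE 0.11, 95% interval -0.68 to -0.20), and -0.36 without CsA 48 h replicate 3. With all arrays CRY1 ranked 7th of 10645 genes by absolute moderated statistic. It did not pass the adjustment over all genes (adjusted p = 0.9994 by limma, and 0.22 to 1.00 over the alternatives). The control 48 h arrays of this comparison are also those of the control time comparison above.

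DBP was lower than its numbered control in all 3 pairs at 48 h, with differences of -0.82, -1.45 and -0.93 and a mean difference of -1.06. It stayed untested because of the filter, and with no filter it did not pass (adjusted p = 1.00 by limma). For PER1 the pairs differed by -0.58, -0.17 and 0.17, with a mean of -0.19 (95% interval -0.58 to 0.20). PER2 differed by -0.68, 0.33 and -0.43, and the sign of its mean, -0.26 (interval -1.03 to 0.50), turned without control 48 h replicate 1 (0.19). For both genes the pairs went in both directions.

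PER3 differed by -0.0002, -0.07 and -0.53, with a mean of -0.20 (95% interval -0.46 to 0.06) that was -0.08 without CsA 48 h replicate 3. NR1D2 differed by 0.32, -0.40 and -0.65 (mean -0.24, interval -0.84 to 0.35), and TEF by 0.32, -0.02 and -1.31 (mean -0.34, interval -1.26 to 0.59). The TEF mean was 0.15 without CsA 48 h replicate 3. BHLHE40 differed by 0.04, 0.01 and -0.46 (mean -0.14, interval -0.62 to 0.34), and its mean was 0.0071 without CsA 48 h replicate 1 and 0.071 without control 48 h replicate 3. In pair 3, which holds the array that stood apart, 6 of the 7 tested members were below control, beside 55.8% of all tested genes. CRY2 differed by 8.37e-04, -0.0047 and -0.0087 in these pairs, and NR1D1 by 0.0007, 0.35 and -0.0027.

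**Figure D3:**
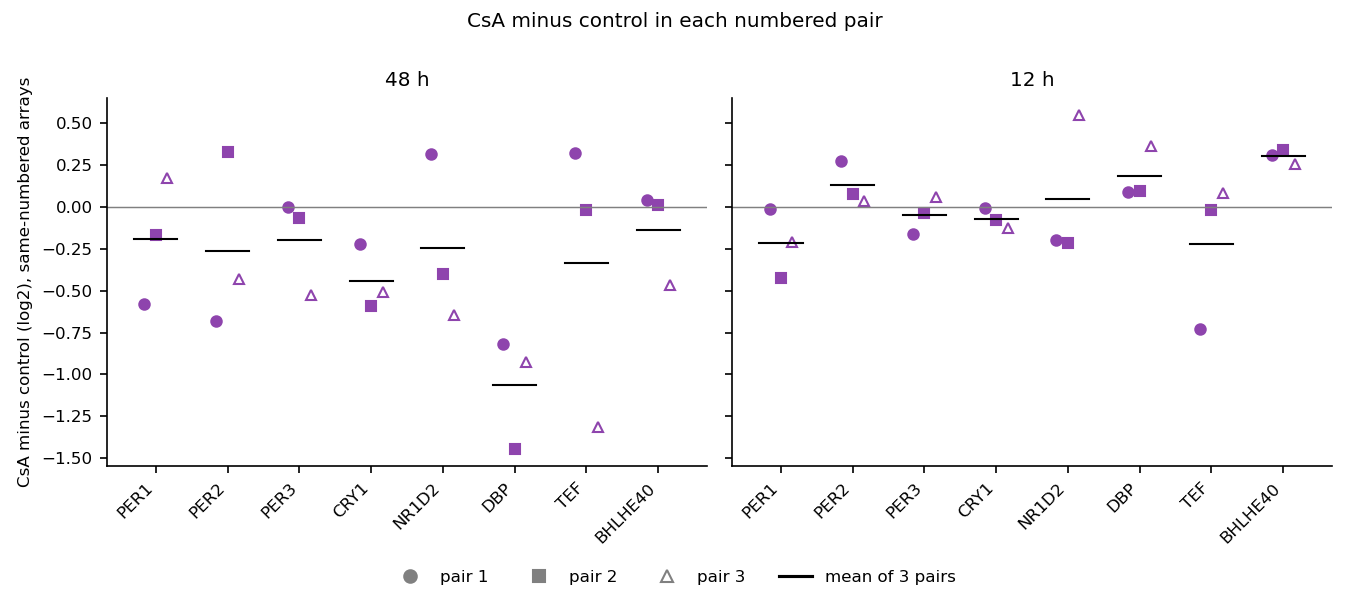
CsA minus control (log2) between arrays of the same replicate number, at 48 h and at 12 h, for the 7 tested clock genes and DBP. Symbols are pairs 1 to 3 and lines are their means. At 48 h CRY1 and DBP lie below 0 in all 3 pairs, as does PER3 with pair 1 at -0.0002. At 12 h BHLHE40, PER2 and DBP lie above 0 in all 3 pairs, and PER1 and CRY1 lie below 0 in all 3.

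At 12 h, after the shorter exposure, no member passed the test of CsA against control. Limma called 0 of the 7 tested members and 0 of 10645 genes (0%), with 143 genes at an unadjusted p under 0.05 (1.34%). Of the 7 members 3 were above 0 and 4 below, with a median of -0.05 beside -0.015 over all tested genes. With the pairs as a block 3 genes were called over the whole table (0.0282%), and 0 members, with 779 genes at an unadjusted p under 0.05 (7.32%).

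BHLHE40 differed by 0.31, 0.34 and 0.26 in the 3 pairs at 12 h. Its mean was 9.77 ± 0.16 in CsA 12 h and 9.46 ± 0.18 in control 12 h (SD, n = 3 each), with the lowest CsA array and the highest control array both at 9.60. The difference was 0.30 (SE 0.22, adjusted p = 1.00 by limma, 0.61 with the pairs as a block). Its other probe set (201169_s_at) differed by 0.23, but in pair 2 it was lower under CsA (6.57) than in control (6.74). PER1 was lower on all CsA 12 h arrays than on the control 12 h arrays, with pair differences of -0.01, -0.43 and -0.21 and a mean of -0.22 (95% interval -0.61 to 0.18). Such a separation downward was seen for 6.59% of tested genes. The second PER1 probe set (36829_at) differed by -0.50 at 12 h, but its groups overlapped. It was at 5.95, 4.92 and 5.91 under CsA and at 5.78, 6.27 and 6.23 in control. PER2 was higher on all CsA 12 h arrays, by 0.27, 0.08 and 0.03 with a mean of 0.13 (interval -0.64 to 0.89), and 5.38% of tested genes separated upward. Each interval uses 1 spread per gene, shared by the 4 groups. The SD of PER2 was 0.02 in CsA 12 h and 0.14 in control 12 h, against 0.46 in CsA 48 h and 0.81 in control 48 h. Its interval at 12 h thus mostly measures the spread at 48 h.

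The remaining members at 12 h had small or mixed pair differences. PER3 differed by -0.16, -0.04 and 0.06, CRY1 by -0.01, -0.08 and -0.13, NR1D2 by -0.20, -0.22 and 0.55, and TEF by -0.73, -0.02 and 0.08. The 95% intervals were -0.31 to 0.21 for PER3, -0.31 to 0.16 for CRY1, -0.55 to 0.64 for NR1D2 and -1.14 to 0.70 for TEF. The mean of PER3 turned to 0.018 without CsA 12 h replicate 1. That of NR1D2, 0.05, turned to -0.22 without CsA 12 h replicate 3 and to -0.08 without control 12 h replicate 2. The other NR1D2 probe set past the filter (225768_at) differed by 0.28 at 12 h. It read 7.67, 7.32 and 7.66 under CsA and 7.41, 7.03 and 7.37 in control. Each CsA array was thus above its numbered control in that probe set. DBP differed by 0.09, 0.10 and 0.36 at levels below 3 on every array.

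The difference between the CsA effects at 48 h and at 12 h asked whether exposure time changed the response of a gene to CsA. It equals the time change under CsA minus that in control and uses the same 12 arrays. Limma called 0 of the 7 members and 0 of 10645 genes (0%), with 164 genes at an unadjusted p under 0.05 (1.54%). With the pairs as a block it also called 0 genes, with 977 at an unadjusted p under 0.05 (9.18%). CRY1 differed by -0.37 (SE 0.15, 95% interval -0.70 to -0.04, adjusted p = 0.9999 by limma), so its call in control and not under CsA was not shown to be a difference between them. BHLHE40 differed by -0.44 (SE 0.31), PER2 by -0.39 (SE 0.49), NR1D2 by -0.29 (SE 0.38) and PER3 by -0.15 (SE 0.17). TEF differed by -0.12 (SE 0.59) and PER1 by 0.02 (SE 0.25, interval -0.53 to 0.58). The median over the 7 members was -0.29, with 1 above 0 and 6 below, and 4 arrays when left out turned the sign of PER1: CsA 12 h replicate 2, CsA 48 h replicate 2, control 12 h replicate 3 and control 48 h replicate 3, with values between -0.18 and -0.0008. TEF turned without CsA 12 h replicate 3 (0.19), CsA 48 h replicate 3 (0.37) or control 12 h replicate 2 (0.19), and PER2 without control 48 h replicate 1 (0.064).

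Across the 12 arrays PER1 and NR1D2 had a Pearson r of 0.89, and NR1D2 and TEF had an r of 0.81. PER1 and CRY1 had an r of 0.76, PER1 and PER3 of -0.03 and PER2 and BHLHE40 of -0.26. These values describe 12 arrays that share 4 group means, normalisation and, in part, pairs. By the same measure, the tested genes outside the list most like PER1 were CUL7 (r = 0.97) and AUH (0.96), and those most like NR1D2 were VWA8 (0.98) and ZBED3 (0.96). For CRY1 they were KLHL2 (0.94) and YES1 (0.92), for PER2 FBXO2 (0.98) and RXRB (0.96), and for TEF UBE2H (0.97) and ZFP91 (0.96). The likest to PER3 were ZNF74 (0.91) and RUSC2 (0.90), and to BHLHE40 TMEM255A (0.91) and TCIM (0.89).

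Other transcription factors of the clock were taken from a list of 11, of which 10 were on the arrays and 8 passed the filter. Under CsA 2 of the 8 were called higher at 48 h than at 12 h and 0 lower. Over all tested genes these shares were 6.79% and 7.6%. The median of the 8 was 0.32, beside 0.010 over all tested genes. With the numbered pairs as a random block only BHLHE41 of the 8 was called under CsA. In control 3 were called higher and 1 lower, beside 12.5% and 13.8% of all tested genes. The median in control was 0.52, beside 0.007 over all tested genes. Without CsA 48 h replicate 3 the count under CsA was 4 higher, with BMAL1 and NFIL3 added, when 37.0% of all tested genes were called. BHLHE41 (DEC2), the paralogue of BHLHE40, averaged 9.76 ± 0.10 in CsA 48 h and 10.06 ± 0.38 in control 48 h, against 7.93 ± 0.45 in CsA 12 h and 7.69 ± 0.19 in control 12 h (SD, n = 3 each). The difference was 1.83 under CsA (adjusted p = 0.0036 by limma) and 2.38 in control (adjusted p = 8.90e-04), and no array of one time overlapped the other. Such a separation upward was seen for 16.1% of tested genes under CsA and 24.9% in control. In the fit on the CsA arrays alone BHLHE41 lost its call (adjusted p = 0.053). Averaged over all its probe sets BHLHE41 differed by 1.06 under CsA (adjusted p = 0.0075) and by 1.5 in control (adjusted p = 0.0013).

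CIART, a repressor of CLOCK and BMAL1, was at 7.03, 7.07 and 5.33 in CsA 48 h and at 6.84, 7.15 and 7.24 in control 48 h. At 12 h it was at 5.12, 4.65 and 5.04 under CsA and at 4.60, 3.76 and 4.71 in control. CsA 48 h replicate 3 was the lowest 48 h array. The difference was 1.54 under CsA (adjusted p = 0.039 by limma) and 2.72 in control (adjusted p = 0.0026). Under CsA the call was lost when any 1 array other than CsA 48 h replicate 3 was left out, with values of 1.24 to 1.63 and adjusted p up to 0.13, and without CsA 48 h replicate 3 it was 2.11 (adjusted p = 0.0010). It was also lost with no filter on low values (adjusted p = 0.097), with the pairs as a random block (0.072) and on the CsA arrays alone (0.13). In the control comparison it held in all 6 fits that left out 1 array.

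NFIL3 (E4BP4), which represses D-box genes, was at 11.06, 11.29 and 9.04 in CsA 48 h and at 11.16, 11.56 and 11.33 in control 48 h. At 12 h it was at 9.24, 9.05 and 9.09 under CsA and at 9.27, 8.97 and 9.27 in control. CsA 48 h replicate 3 thus lay within the range of the 12 h arrays. The difference was 1.34 under CsA (adjusted p = 0.076 by limma), 2.05 without CsA 48 h replicate 3 (adjusted p = 1.12e-04), and 2.18 in control (adjusted p = 0.0093).

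With all arrays CLOCK and BMAL1, the activators of the loop, did not pass in either time comparison. The values of BMAL2, BMAL1 and CLOCK between the times are given after they were seen. BMAL2, a paralogue of BMAL1, fell by 0.98 in control (adjusted p = 0.040 by limma). That call was lost in 5 of 6 fits that left out 1 array, all but the one without control 48 h replicate 3, with adjusted p up to 0.13, and with no filter on low values (0.098). Under CsA the BMAL2 difference was -0.28 (adjusted p = 0.54). BMAL1 differed by 0.30 under CsA (adjusted p = 0.66) and by 0.60 in control (adjusted p = 0.32), and CLOCK by -0.15 under CsA (adjusted p = 0.38) and by -0.33 in control (adjusted p = 0.055). Under CsA, leaving out CsA 48 h replicate 3 gave 0.91 for BMAL1, which then passed (adjusted p = 0.017), -0.64 for BMAL2 (adjusted p = 0.061) and -0.16 for CLOCK (adjusted p = 0.35). RORA and RORB, which activate BMAL1 where REV-ERBs repress it, did not pass the filter.

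In the CsA comparisons none of these 8 genes was called at either time. The largest moderated statistics at 48 h were those of NFIL3 (-0.89), BMAL2 (0.46) and CIART (-0.60), each with an adjusted p of 0.9994 by limma. Leaving out CsA 48 h replicate 3 gave -0.18, 0.10 and -0.03. At 12 h they were those of HLF (-0.39), a PAR bZIP factor like DBP and TEF, CIART (0.58) and CLOCK (-0.12). HLF was lower on all CsA 12 h arrays than on the control 12 h arrays, with pair differences of -0.52, -0.47 and -0.20. Such a separation downward was seen for 6.59% of tested genes, and HLF was named for its statistic in this same comparison. With the pairs as a block HLF did not pass either (adjusted p = 0.46 by limma).

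**Figure D4:**
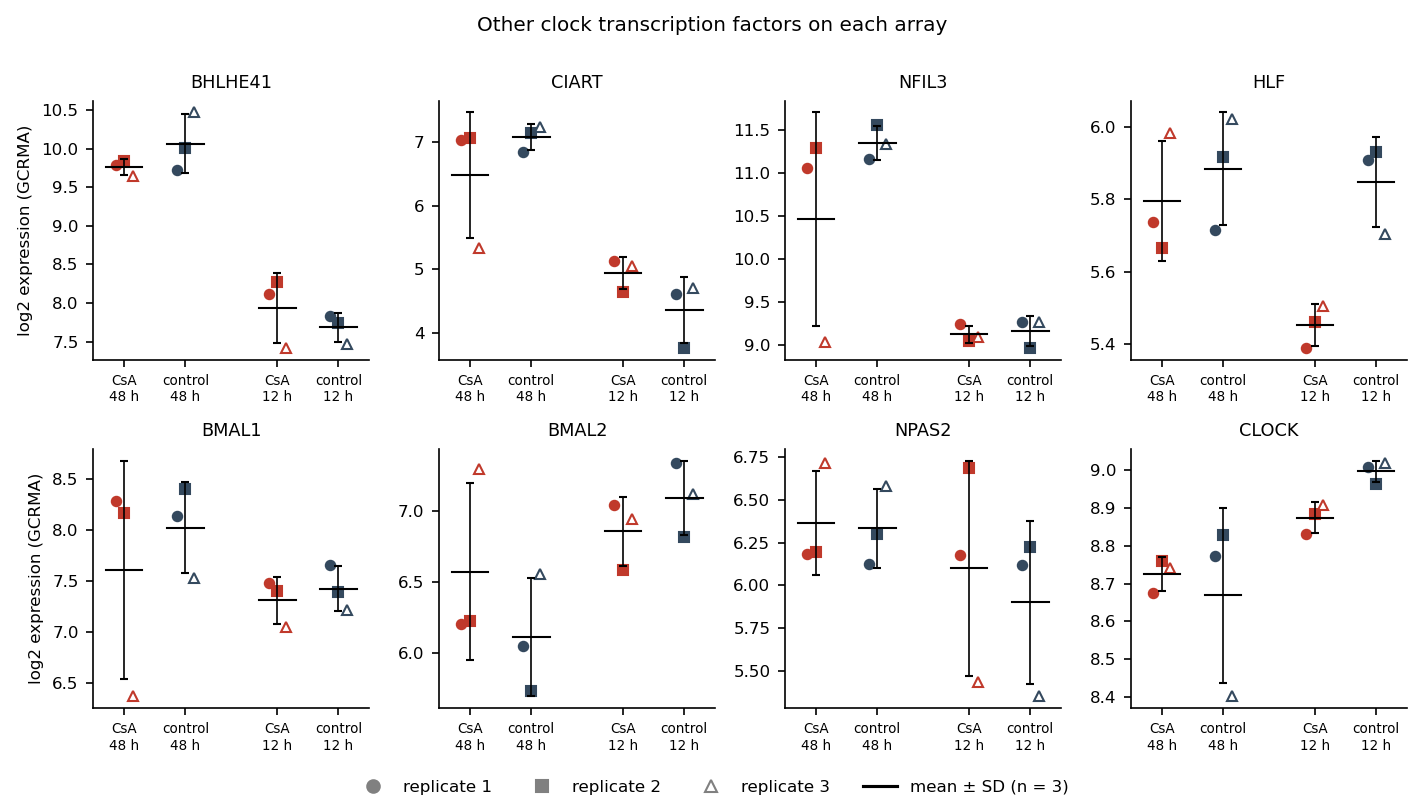
Log2 level (GCRMA) of 8 further clock transcription factors on each of the 12 arrays, with CsA and control at 48 h on the left and CsA and control at 12 h on the right. Symbols are replicates 1 to 3, lines are means and bars are SD (n = 3), and y axes differ between genes. BHLHE41 and CIART lie higher at 48 h, and CsA 48 h replicate 3 lies low for CIART, NFIL3 and BMAL1 and high for BMAL2.

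Genes around the loop were counted from 4 further lists. Over all tested genes, 14.4% were called between the times under CsA and 26.3% in control. Of 9 tested kinases, ligases and partners of clock proteins, 0 were called between the times under CsA and 1 was called lower in control, WDR5, a chromatin partner of PER complexes (-0.80, adjusted p = 0.0081 by limma). Without CsA 48 h replicate 3 the WDR5 difference under CsA, -0.50 with all arrays, was -0.70 and passed (adjusted p = 0.0030). Of 7 tested output genes known to follow the clock, 1 was called under CsA (higher) and 2 in control (1 higher, 1 lower). NAMPT, the rate-limiting enzyme of NAD salvage, differed by 0.59 under CsA (adjusted p = 0.032) and by 0.98 in control (adjusted p = 0.0027). The CsA call was lost when any 1 array other than CsA 48 h replicate 3 was left out (adjusted p up to 0.11), with no filter on low values (0.055), with the pairs as a random block (0.056) and on the CsA arrays alone (0.13). The control call held in all 6 fits that left out 1 array. The random block called 1 kinase or partner under CsA (TIMELESS, lower), and among outputs 1 under CsA (PPARA, higher) and 3 in control (NAMPT higher, WEE1 and KLF10 lower). WEE1, a kinase that delays mitosis, differed by -1.10 in control (adjusted p = 0.048), a call kept in 1 of 6 fits with 1 array fewer, that without control 48 h replicate 3, and lost with no filter on low values (adjusted p = 0.12).

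Glucocorticoids and growth stimuli are known to induce PER1, so lists of glucocorticoid-responsive and immediate early genes were counted. Of 8 tested glucocorticoid-responsive genes, 0 were called between the times under CsA and 3 in control, beside 14.4% and 26.3% of all tested genes. TSC22D3 (GILZ), an anti-inflammatory glucocorticoid target, differed by 1.67 in control (adjusted p = 0.017 by limma), SGK1, a kinase that promotes sodium transport, by -2.09 (adjusted p = 0.019), and FKBP5, a co-chaperone of the glucocorticoid receptor, by -0.45 (adjusted p = 0.036). These calls were lost in 3, 3 and 5 of the 6 fits that left out 1 array. For TSC22D3 the arrays were control 12 h replicates 1 and 2 and control 48 h replicate 1, for SGK1 control 12 h replicates 2 and 3 and control 48 h replicate 1, and for FKBP5 all but control 48 h replicate 1. With no filter on low values SGK1 (adjusted p = 0.055) and FKBP5 (0.057) also lost their calls, and FKBP5 did with the pairs as a random block (0.065), which left 2 of the list called in control. Averaged over all its probe sets TSC22D3 differed by 0.83 in control (adjusted p = 0.021). Without CsA 48 h replicate 3 the differences under CsA were 1.47 for TSC22D3 and -2.10 for SGK1, and both passed (adjusted p = 0.0030 and 0.0029). Members of this list thus went both ways at 48 h.

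Of 8 tested immediate early genes, 1 was called higher and 2 lower in each time comparison. Over all tested genes, 6.79% were called higher and 7.6% lower under CsA, and 12.5% and 13.8% in control. ATF3, which stress induces, differed by 2.89 under CsA (adjusted p = 0.044 by limma) and by 5.35 in control (adjusted p = 0.0025), and FOSL1, a subunit of AP-1, by -2.74 (adjusted p = 0.0069) and -2.71 (adjusted p = 0.0041). IER2 differed by -0.66 under CsA (adjusted p = 0.032) and by -0.71 in control (adjusted p = 0.016). The ATF3 call under CsA was lost without any 1 array other than CsA 48 h replicate 3, with no filter on low values (adjusted p = 0.11) and with the pairs as a random block (0.057), which left 0 called higher and 2 lower under CsA. In the fit on the CsA arrays alone ATF3 (0.15), FOSL1 (0.062) and IER2 (0.082) all lost their calls. The IER2 calls were lost in 4 of 6 fits under CsA (all but those without CsA 48 h replicate 2 or 3), with no filter under CsA (0.064) and in 3 of 6 in control (without control 12 h replicate 1 or control 48 h replicates 1 or 2). The counts under CsA without CsA 48 h replicate 3 were 1 higher and 2 lower among kinases, ligases and partners, 2 and 2 among outputs, 2 and 1 among glucocorticoid-responsive genes and 1 and 3 among immediate early genes. In that fit 37.0% of all tested genes were called. In the CsA comparisons 0 members of these 4 lists were called at either time.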

How the data were processed

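Levels came from a table of 12 arrays that the authors deposited as log2 values. The log2 scale was read from the values themselves, and GCRMA is named in the submitters' processing notes, which give no version. No genome build was found in the sources used here. Of 54675 probe sets, 62 controls were left out, 41091 carried 1 gene symbol, 1801 several and 11721 none. One probe set per gene was used, that of highest mean. A gene with no probe set of its own alone was named through the probe set's RefSeq accession (256 genes, among them PER1 and NR1D1), which gave 20031 genes. Those above 4 on all 3 arrays of at least 1 group were tested (10645). Only log2 differences of group means are reported, with folds as powers of 2.

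Tests were two-sided, with limma 3.58.1 in R 4.3.3 with 1 coefficient per group fitted to the 12 arrays (residual degrees of freedom 8), eBayes without trend, Benjamini-Hochberg over all genes tested and a threshold of 0.05. The fit was tested on simulated data with independent noise and 1 spread per gene. Those data had no pairing, no larger spread at 48 h and no array that stood apart. The simulation thus cannot show how the fit handles these features. The labels call replicates biological, and where these were not separate cultures p-values measure technical spread. Same-numbered arrays of CsA and control deviated together within a time (r of 0.78, 0.54 and 0.74 at 48 h and 0.37, 0.53 and 0.59 at 12 h), a pairing that comes from the data and the shared numbers. Between times they did not, with r from -0.14 to 0.23 under CsA and from -0.02 to 0.06 in control. A fit with pairs as a block had 4 residual degrees of freedom. Arrays have no read depth, so their number limits precision.

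The members, gene lists and tests were chosen with earlier results of these data known. All 10 members are named. From each further list the 3 tested genes with the largest absolute moderated statistic could be named, in all comparisons for clock transcription factors and in the time comparisons for the other lists. The 2 genes most like each member were taken by Pearson r over the arrays. Promoter windows and motif counts use RefSeq windows of GRCh38.p14.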

Additional observations from a re-analysis of the deposited data

Results flagged for a closer look

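For 4 genes among the members and the genes that the naming rule takes from the lists, CsA minus control went one way in every numbered pair at 48 h and the opposite way in every pair at 12 h. For this search the rule covered all comparisons, so genes from the lists were partly chosen on these same values. The share of all tested genes with this pattern was not counted. For DBP the pairs differed by -0.82, -1.45 and -0.93 at 48 h and by 0.09, 0.10 and 0.36 at 12 h, a difference of CsA effects of -1.24, and all its 12 h arrays were below 3. That difference was not tested in the filtered fit, and with no filter it did not pass (limma, adjusted p = 0.93). BMAL2 differed by 0.16, 0.49 and 0.73 at 48 h and by -0.30, -0.23 and -0.17 at 12 h, which makes 0.69. NAMPT differed by -0.06, -0.18 and -0.76 at 48 h and by 0.06, 0.06 and 0.04 at 12 h, which makes -0.385. ATF3 differed by -0.16, -0.67 and -3.61 at 48 h and by 1.04, 1.25 and 0.68 at 12 h, which makes -2.47. The tests of these last 3 differences did not pass (limma, adjusted p = 0.9999 each), and pair 3, with CsA 48 h replicate 3, holds the largest value at 48 h in all 3 genes.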

How the results depend on the processing

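The count of called members was 0 under every alternative in the CsA comparisons and in the difference between them, with the replicate block included. In the control time comparison 2 to 4 members were called, and 3 to 4 when 1 array was left out. Under CsA it was 2 to 3 when 1 array was left out, 1 with probe sets of 1 symbol only (which leaves out PER1, an alternative added after seeing the data) and 1 in a fit on the CsA arrays alone, where NR1D2 lost its call. The replicate block changed no member's call and gave the same member counts as the fit without it. Over the whole table, CsA minus control at 12 h gave 1 called gene with no filter on low values, 1 on the 12 h arrays alone, 3 with the replicate block and 8 with the block, trend and robust moderation. The difference of CsA effects gave 2 with that last setting. The control time comparison gave 1361 to 3242 genes with 1 array left out. Under CsA it gave 444 to 3938 with 1 array left out (3938 without CsA 48 h replicate 3), 1013 with no filter, 41 on the CsA arrays alone and 2432 with a replicate block across both times. Among the member values under alternatives, 549 kept direction and side of the threshold, 17 changed sign, 3 gained a call and 1 lost it. The sign changes, of values that were never called, all came from leaving out 1 array. At 12 h PER3 ran from -0.11 to 0.018 and NR1D2 from -0.22 to 0.31. At 48 h BHLHE40 ran from -0.37 to 0.071, TEF from -0.66 to 0.15 and PER2 from -0.58 to 0.19. The difference of effects ran from -0.18 to 0.18 for PER1, from -0.44 to 0.37 for TEF and from -0.71 to 0.064 for PER2. Between the times under CsA BHLHE40 ran from -0.19 to 0.052 and PER3 from -0.15 to 0.032. TEF passed in control on the control arrays alone (adjusted p = 0.025 by limma). The causes were not tested, apart from the smaller number of arrays or genes that these settings hold by construction. Replicates spread more at 48 h, with a median SD per gene of 0.28 in CsA 48 h and 0.21 in control 48 h, against 0.12 in each 12 h group. The main fit shares 1 spread per gene over all groups. For genes with such unequal spread its intervals and tests are too wide at 12 h and too narrow at 48 h.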
